A study of Mus musculus with 16 samples.

Results

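The genes described here are 38 genes of the cell division cycle and of proliferation, given by name: cyclins and Cdk1, mitotic kinases and checkpoint genes, replication genes, spindle and centromere genes, and E2f1, Foxm1 and Mki67. A probe set was taken as a member where the platform annotation gave it exactly 1 gene symbol and that symbol was on the list. This found 89 probe sets of 37 genes, among 45037 probe sets and 18193 genes in all. Of these genes 9 had 1 probe set and 28 had several, with at most 5. Ccnb1, the main B-type cyclin of mitosis, was not analysed here.

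The study profiled RNA from the aortic valve, taken as cusp, annulus and root together, and from the ascending part of the aorta, in mice aged 30 days. The 4 groups of 4 arrays combined 2 tissues with 2 genotypes, Eln+/+ and Eln+/-, where Eln+/- mice carry a single functional allele of the elastin gene Eln and Eln+/+ mice are its wild type. No treatment was given, and the nanogram amounts of RNA were amplified before labelling without pooling. The labels name no tissue-specific driver for the Eln allele, and they give no sex, litter or link between an aorta and a valve of the same number.

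Cells that enter division first license and copy their DNA, which needs the Mcm helicase, Pcna and the enzymes that make deoxynucleotides. They then condense the chromosomes, attach them to the spindle and separate them, under the control of Cdk1 with its cyclins, the Aurora and Polo kinases and the spindle checkpoint. Most of these transcripts are low in resting cells and rise together in S, G2 and M phase, so they serve as a joint readout of cycling cells. In bulk RNA such as this, fewer cycling cells and less RNA per cycling cell cannot be told apart.

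Much of this joint control acts at promoters, through the E2F site, the CHR element bound by the DREAM and MuvB complexes, and the CCAAT box bound by NF-Y. Promoter sequences of 6 members that the values below turn on are shown from RefSeq (GRCm38.p6), in the 5′ to 3′ direction of the gene, and each ends before the first base annotated to the gene. For Cenpa, Mki67 and Top2a that base lies upstream of the start from which the search window below is counted. Capitals mark each exact match, on either strand, to the CHR letters TTTGAA or TTCGAA, to CCAAT, or to the E2F letters TTTCCCGC, TTTGGCGC or TTTCGCGC.
Cenpa (chr5:30666736-30666876, + strand): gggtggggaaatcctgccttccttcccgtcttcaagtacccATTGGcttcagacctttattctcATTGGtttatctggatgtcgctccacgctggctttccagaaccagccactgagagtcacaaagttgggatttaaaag
Bub1 (chr2:127831860-127832009, - strand): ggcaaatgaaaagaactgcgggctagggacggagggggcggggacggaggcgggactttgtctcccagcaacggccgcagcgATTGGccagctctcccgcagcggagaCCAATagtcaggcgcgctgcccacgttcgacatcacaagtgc
Cdk1 (chr10:69352913-69353062, - strand): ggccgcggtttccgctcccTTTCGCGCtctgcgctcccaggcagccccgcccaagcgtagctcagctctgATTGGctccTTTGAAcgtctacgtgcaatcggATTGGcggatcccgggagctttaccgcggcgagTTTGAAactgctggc
Mki67 (chr7:135716451-135716529, - strand): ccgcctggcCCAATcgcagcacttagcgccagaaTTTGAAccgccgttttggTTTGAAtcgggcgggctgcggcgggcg
Top2a (chr11:99024200-99024339, - strand): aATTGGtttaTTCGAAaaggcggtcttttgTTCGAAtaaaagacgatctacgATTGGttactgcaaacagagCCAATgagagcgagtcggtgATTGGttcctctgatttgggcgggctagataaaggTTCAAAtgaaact
Mcm2 (chr6:88898781-88898930, - strand): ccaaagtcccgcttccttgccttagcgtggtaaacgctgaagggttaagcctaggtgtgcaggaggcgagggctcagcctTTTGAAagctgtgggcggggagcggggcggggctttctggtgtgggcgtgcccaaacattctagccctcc
In the 250 bases before the start, a CCAAT box was found in 23 of the 29 members with a sequence, or 79.3%, against 34.5% of 27025 genes. CHR letters were found in 9 members, or 31%, against 17.4% of all genes, and all 9 also had a CCAAT box, a combination held by 6.21% of all genes. E2F letters were found in 5 members, or 17.2%, against 1.59%. Cdk1 held all 3 kinds, while Cenpa and Bub1 held CCAAT boxes with no CHR or E2F letters in these windows. A match of letters describes the sequence and is not a measured site.

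Each value is the log2 of a signal ratio, so values give differences between arrays and no absolute level. For all 37 shown probe sets the median ratio over the 16 arrays was 1, so that 0 is the middle of the arrays and not an absence of RNA. For 7 other member probe sets the median was below 1, as for 5257 of all probe sets tested, and their 0 is not the middle. They include the third probe set of Cenpa, with a median of 0.641, and the second of Bub1, with 0.961. Where a gene has several probe sets, the one of greatest SD across arrays stands for it and is called the shown probe set. A difference is tested with limma across all 45037 probe sets and is said to rise or fall only where the adjusted p is below 0.05. Differences carry the standard error (SE) of that fit.

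Several arrays stood apart from their groups. Aorta Eln+/- replicate 2 had a mean of 1.34 over 15 T cell and thymocyte markers and 1.04 over 11 macrophage markers, and Rag1, the recombinase of developing lymphocytes, was at 5.06. On the same array all 10 smooth muscle markers had their lowest value of the 8 aorta arrays, with a mean of -0.87. Aorta Eln+/- replicate 4 had a T cell marker mean of 0.64 and Rag1 at 3.15. Rag1 held the highest value of its list on both arrays. Of the 15 T cell markers, 11 had their highest aorta value on replicate 2 and 1 its lowest. On replicate 4 it was 0 for the highest and 0 for the lowest. Cardiac muscle markers averaged -3.35 to -0.96 on the aorta arrays, 0.52 to 1.53 on valve Eln+/+ and 1.51 to 2.38 on valve Eln+/-. Xist was at -6.64 on 6 of the 8 Eln+/+ arrays and between -0.064 and 0.32 on the other 10 arrays, which include all 8 of Eln+/-, so genotype and the sex seen in the RNA went largely together.

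**Figure D1:**
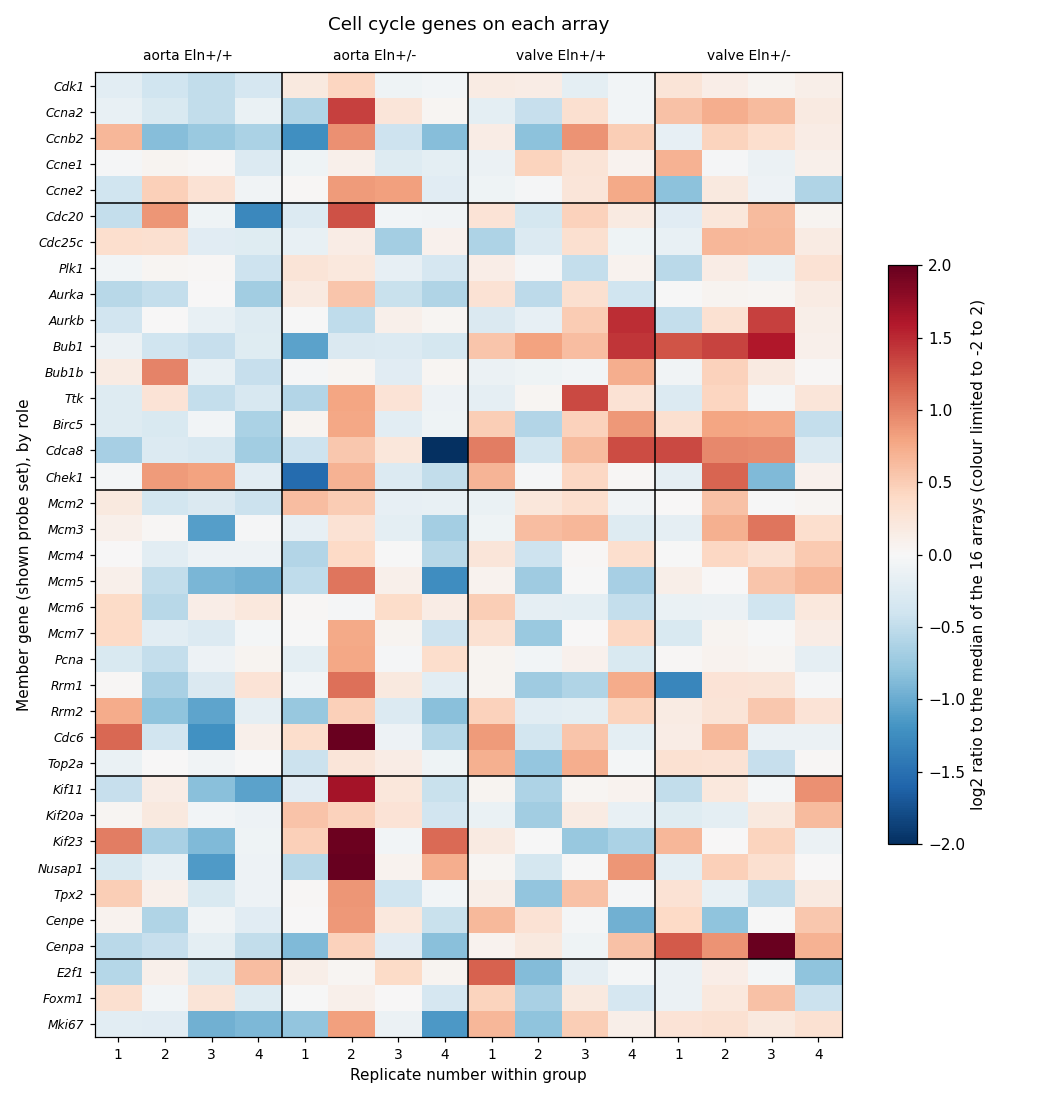
Log2 ratio of each of the 37 measured genes (rows, by role) on each of the 16 arrays (columns, by group and replicate number), as colour. Aorta Eln+/- replicate 2 is the column with the most genes above 0, 34 of 37, and the fewest are above 0 on aorta Eln+/+ replicates 4 and 3, 5 and 7 genes, and on valve Eln+/+ replicate 2, with 8.

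The heat map of all members shows single arrays, rather than whole groups, as the columns of one colour. The mean over the 37 genes in replicates 1 to 4 was 0.0035, -0.13, -0.33 and -0.29 in aorta Eln+/+ and -0.22, 0.67, -0.026 and -0.33 in aorta Eln+/-. In the valve it was 0.23, -0.27, 0.21 and 0.18 in Eln+/+ and 0.056, 0.33, 0.29 and 0.11 in Eln+/-. The highest mean was that of aorta Eln+/- replicate 2, the array with the raised lymphocyte and macrophage markers, and the other Eln+/- aortas lay within the range of the Eln+/+ aortas. Valve Eln+/+ replicate 2 was the only valve array below 0.

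**Figure D2:**
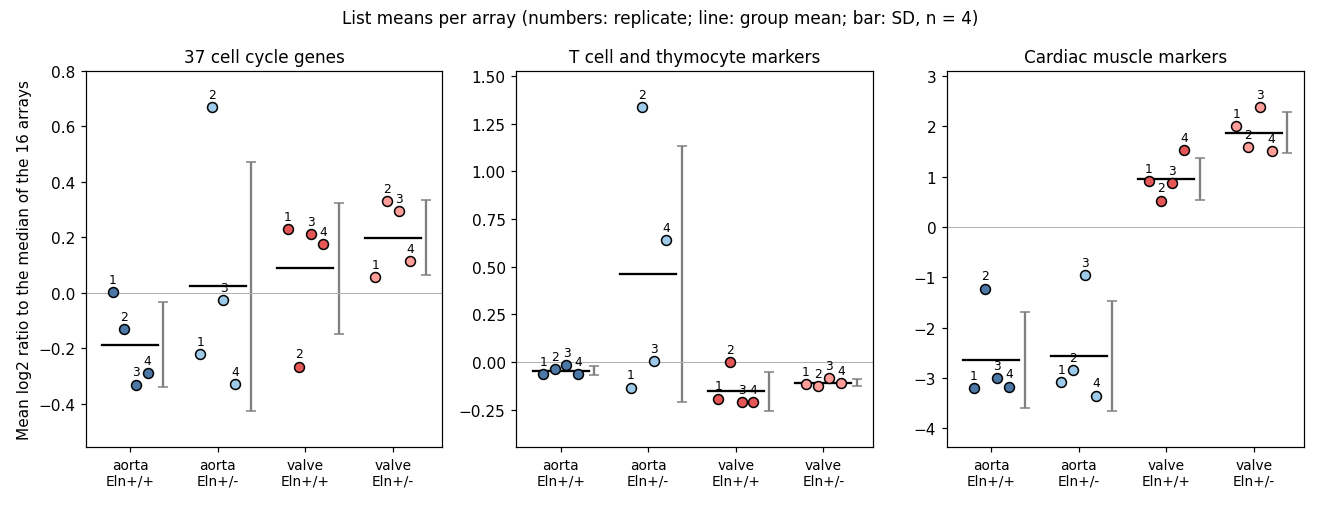
Mean log2 ratio per array over the 37 cell cycle genes, the T cell and thymocyte markers and the cardiac muscle markers, for the 4 groups of 4 arrays; numbers are replicates, lines group means and bars SD. Aorta Eln+/- replicate 2 is highest for the cell cycle genes (0.67) and for the T cell markers (1.34), and the cardiac markers separate valve from aorta arrays.

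In the aorta, the comparison of Eln+/- with Eln+/+ asks whether the heterozygous vessel differs in cycling at 30 days. No member passed the test, where the background of probe sets called is 0.00%, and the smallest adjusted p of a member was 0.867. The shown probe sets were higher in Eln+/- for 27 genes and lower for 10, with a median difference of 0.19, against 47.3% higher and a median of -0.016 over all genes. Over all 89 member probe sets 58.4% were higher, with a smaller median of 0.051, against 46.8% and -0.018 over all probe sets. At an unadjusted p below 0.05, 4 of 37 members were higher and 0 lower, against 5.68% of all genes. Among the 28 genes with several probe sets, all probe sets had the same sign in 13.

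Cdk1, the kinase that drives entry into mitosis, had the smallest p of the members in this comparison. Its log2 ratio in replicates 1 to 4 was -0.21, -0.40, -0.49 and -0.34 in aorta Eln+/+ and 0.19, 0.43, -0.083 and -0.057 in aorta Eln+/-. All 4 heterozygous aortas lay above all 4 wild-type aortas, which 1.37% of all genes did in that direction. The difference was 0.48 ± 0.14 (SE, n = 4 and 4), a 1.40-fold higher ratio, with a limma adjusted p of 0.867 and an exact two-sided permutation p of 0.0286, the smallest that 70 assignments allow. Without aorta Eln+/- replicate 2 it was 0.38.

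Kif23, a kinesin of the central spindle that is needed for cytokinesis, had the widest difference. Its values were 1.02, -0.66, -0.88 and -0.079 in aorta Eln+/+ and 0.47, 1.96, -0.062 and 1.13 in aorta Eln+/-. The groups overlapped, since replicate 1 of the wild type was higher than heterozygous replicates 1 and 3. The difference was 1.02 ± 0.43 (SE), with an adjusted p of 0.885 and a 95% interval from 0.11 to 1.93. It was 0.66 without aorta Eln+/- replicate 2, and 0.38 as the mean over its 3 probe sets.

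All 7 genes of the spindle and centromere group were higher in aorta Eln+/-, with a median of 0.37 and 0 past the threshold. Nusap1, which bundles spindle microtubules, was 1.00 ± 0.43 higher, and Kif11, the motor that separates the spindle poles, was 0.86 ± 0.41 higher. Replicate 2 alone held 2.06 for Nusap1 and 1.66 for Kif11, where the other heterozygous aortas held -0.55 to 0.73 and -0.45 to 0.23. Without that array the differences were 0.50 and 0.40. Cenpe, the kinetochore motor, Kif20a, a kinesin of late mitosis, and Tpx2, which activates Aurora A, differed by 0.37, 0.21 and 0.061, and by 0.14, 0.13 and -0.20 without it.

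In the replication group 9 of 11 genes were higher in aorta Eln+/-, with a median of 0.13. Pcna, the sliding clamp of DNA polymerase, was at -0.30, -0.47, -0.10 and 0.059 in aorta Eln+/+ and at -0.19, 0.78, -0.017 and 0.36 in aorta Eln+/-. Mcm2, a subunit of the replicative helicase, was at 0.19, -0.37, -0.28 and -0.43 in wild type and at 0.62, 0.50, -0.17 and -0.15 in heterozygous aorta. For both genes the groups overlapped, with differences of 0.44 ± 0.19 for Pcna and 0.42 ± 0.21 for Mcm2, each with an adjusted p of 0.885. Without aorta Eln+/- replicate 2 they were 0.25 and 0.32. Top2a, the topoisomerase that untangles replicated chromosomes, was at -0.13, 0.0089, -0.070 and -0.0090 in wild type and at -0.43, 0.25, 0.15 and -0.080 in heterozygous aorta. Its difference was 0.022 ± 0.28, close to 0. The ribonucleotide reductase subunits were unlike each other, Rrm1 at 0.42 and Rrm2 at -0.025, and without aorta Eln+/- replicate 2 at 0.14 and -0.30.

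Of the 5 cyclin and Cdk1 genes 3 were higher and 2 lower in aorta Eln+/-. Ccna2, the cyclin of S and G2 phase, was 0.53 ± 0.30 higher, with 1.36 on replicate 2 and -0.60 to 0.24 on the other heterozygous aortas, and its difference was 0.16 without replicate 2. Among 11 mitotic kinase and checkpoint genes 6 were higher and 5 lower. They ran from -0.76 ± 0.45 for Chek1, the kinase that responds to stalled replication, to 0.46 ± 0.40 for Cdc20, the activator of the anaphase-promoting complex. Without replicate 2 they were -1.12 and 0.11. Mki67, which codes for the Ki-67 antigen of cycling cells, was at -0.21, -0.23, -0.95 and -0.90 in aorta Eln+/+ and at -0.79, 0.82, -0.12 and -1.14 in aorta Eln+/-. The heterozygous aortas held both the highest and the lowest of these 8 values, and the difference was 0.26 ± 0.37, with an adjusted p of 0.944, and -0.11 without replicate 2 and 0.54 without replicate 4.

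The direction over the members rested on aorta Eln+/- replicate 2. That array held the highest of the 8 aorta values for 25 of 37 members, or 67.6%, against 20.6% of all genes. It was highest for 5 of 5 cyclin and Cdk1 genes, 8 of 11 replication genes, 6 of 7 spindle and centromere genes, 5 of 11 mitotic kinase and checkpoint genes and 1 of 3 in the remaining group. It was also highest for 59 of 156 other cell cycle genes, or 37.8%. Without it 20 members were higher and 17 lower, the median was 0.020 and 7 genes changed sign. With the T cell marker mean as a covariate 17 were higher and the median was -0.016. That marker mean was highest on replicate 2, at 1.34, so this fit largely repeats leaving replicate 2 out. Aorta Eln+/- replicate 4 had the next highest T cell mean, 0.64, and a member mean of -0.33. Macrophage, B cell and erythroid means of the aorta arrays were also highest on replicate 2, at 1.04, 1.04 and 1.31. The part of each cell type cannot be told apart here.

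Other arrays moved this comparison too. Without aorta Eln+/- replicate 4 the split was 31 to 6 in favour of higher values, and the median was 0.36. On that replicate Cdca8, a member of the chromosomal passenger complex, was at -3.05 and at -3.03 with its second probe set, while the third probe set was at -0.021. Once the contrast of Xist to Y-linked genes entered the fit, the median was 0.45, 33 members were higher and 0 passed. Among the Eln+/+ arrays only aorta replicate 4 and valve replicate 2 carried Xist, with member means of -0.29 and -0.27. The adjusted genotype difference therefore rests on these single arrays.

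**Figure D3:**
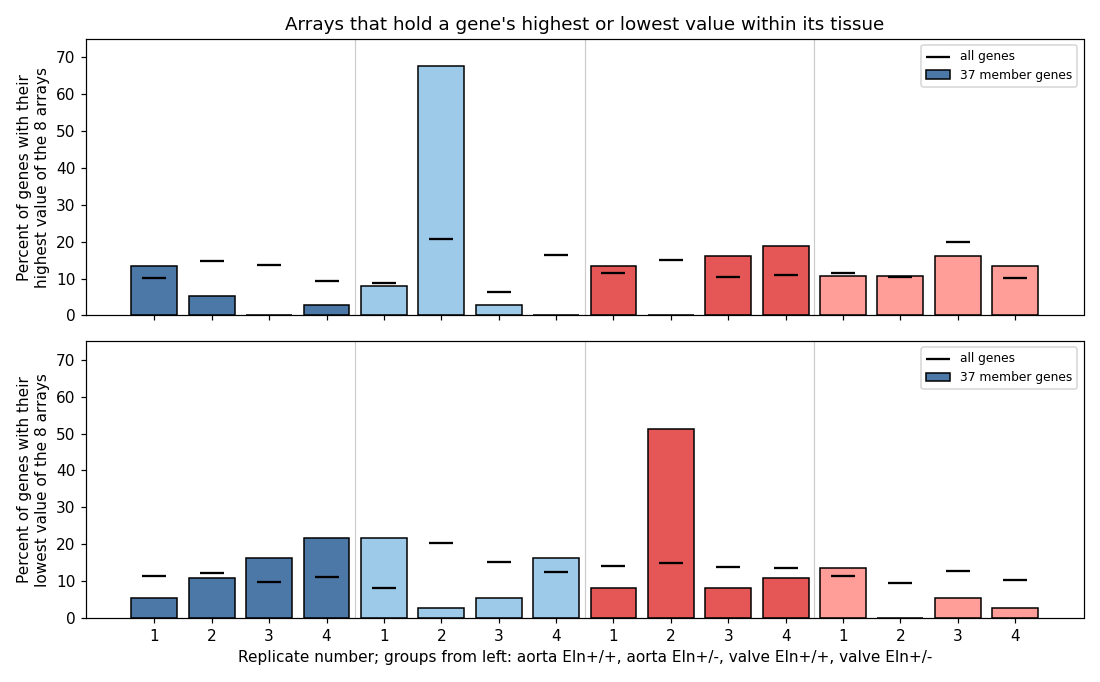
Percent of the 37 cell cycle genes (coloured bars) and of all genes (black dashes) whose highest (upper panel) or lowest (lower panel) value of the 8 arrays of a tissue lies on the given array. Aorta Eln+/- replicate 2 holds the highest value for 67.6% of the members and valve Eln+/+ replicate 2 the lowest for 51.4%.

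In the valve, the comparison of Eln+/- with Eln+/+ asks the same of the valve tissue. Again 0 members passed, with a background of 0.00% of probe sets called, and the smallest adjusted p of a shown probe set was 0.422. The members were higher in Eln+/- for 26 genes and lower for 11, with a median of 0.043, and over all genes 55.0% were higher, with a median of 0.032. Over all 89 member probe sets 65.2% were higher, with a median of 0.053, against 51.9% and 0.011 over all probe sets. Once the contrast of Xist to Y-linked genes entered the fit, the member median was 0.33, with 29 members higher and 0 past the threshold. That fit, too, rests on the few Eln+/+ arrays that carried Xist. At an unadjusted p below 0.05 there was 1 member, against 9.48% of all genes. Of the 28 genes with several probe sets, 13 had the same sign in all.

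That member was Cenpa, the histone H3 variant that marks centromeres. Its log2 ratio in replicates 1 to 4 was 0.077, 0.20, -0.082 and 0.59 in valve Eln+/+ and 1.23, 0.89, 1.97 and 0.69 in valve Eln+/-. The groups did not overlap, which held for 3.51% of all genes in that direction. The difference was 1.00 ± 0.30 (SE, n = 4 and 4), 2.00-fold, with an adjusted p of 0.422 and an exact permutation p of 0.0286. A second probe set gave 0.94 ± 0.24, also without overlap, with an adjusted p of 0.368, and the third gave 0.37 ± 0.39 with overlap.

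Cenpa and the cardiac muscle markers were both higher in valve Eln+/-. The marker mean was 0.96 ± 0.42 (SD, n = 4) in valve Eln+/+ and 1.87 ± 0.41 in valve Eln+/-. With that mean as a covariate the Cenpa difference was 0.17, with a limma adjusted p of 0.990. The array means of these markers ran from 0.52 to 1.53 in valve Eln+/+ and from 1.51 to 2.38 in valve Eln+/-. Genotype and cardiac markers therefore nearly coincide in the valve, and their parts in the Cenpa difference cannot be told apart. The fit with the contrast of Xist to Y-linked genes gave 1.05. Leaving out single arrays gave 0.74 to 1.17.

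Ccna2 came next, at -0.19, -0.46, 0.32 and -0.048 in valve Eln+/+ and at 0.59, 0.73, 0.64 and 0.18 in valve Eln+/-. Heterozygous replicate 4 lay below wild-type replicate 3, so the groups overlapped, and the difference was 0.63 ± 0.30, with an adjusted p of 0.585. Mcm5, another helicase subunit, was 0.66 ± 0.39 higher and Cdc25c, the phosphatase that activates Cdk1, 0.49 ± 0.25 higher. In the opposite direction Ccne2, a cyclin of the G1 to S transition, was at -0.56 ± 0.29. None of these passed, with adjusted p values from 0.603 to 0.660.

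The canonical markers gave no call between the valve groups. Mki67 was at 0.67, -0.80, 0.49 and 0.11 in valve Eln+/+ and at 0.28, 0.31, 0.19 and 0.31 in valve Eln+/-. Top2a was at 0.72, -0.77, 0.72 and -0.046 in wild type and at 0.31, 0.29, -0.47 and 0.028 in heterozygous valve. For both genes the wild-type valves spread beyond the heterozygous ones on either side, and the differences were 0.15 ± 0.37 for Mki67 and -0.12 ± 0.28 for Top2a.

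Pcna was at 0.054, -0.048, 0.080 and -0.31 in valve Eln+/+ and at 0.017, 0.066, 0.036 and -0.17 in valve Eln+/-. Mcm2 was at -0.13, 0.23, 0.34 and -0.070 in wild type and at 0.0078, 0.59, -0.0079 and 0.042 in heterozygous valve. Cdk1 was at 0.17, 0.14, -0.19 and -0.061 in wild type and at 0.26, 0.13, 0.055 and 0.12 in heterozygous valve. The groups overlapped for all 3 genes, with differences of 0.043 ± 0.19, 0.064 ± 0.21 and 0.12 ± 0.14. The 95% intervals reached from -0.36 to 0.44 for Pcna, from -0.39 to 0.52 for Mcm2 and from -0.17 to 0.42 for Cdk1. With 4 arrays a group, differences inside these intervals therefore remain possible.

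By role, 8 of 11 mitotic kinase and checkpoint genes, 6 of 7 spindle and centromere genes, 6 of 11 replication genes, 4 of 5 cyclin and Cdk1 genes and 2 of 3 remaining genes were higher in valve Eln+/-. The medians ran from 0.0075 for the cyclins and Cdk1 to 0.26 for the spindle and centromere genes. Valve Eln+/+ replicate 2 held the lowest of the 8 valve values for 19 of 37 members, or 51.4%, against 14.8% of all genes. It was also the one Eln+/+ valve array that carried Xist. Without it 18 members were higher and 19 lower, the median was -0.038 and 8 genes changed sign.

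**Figure D4:**
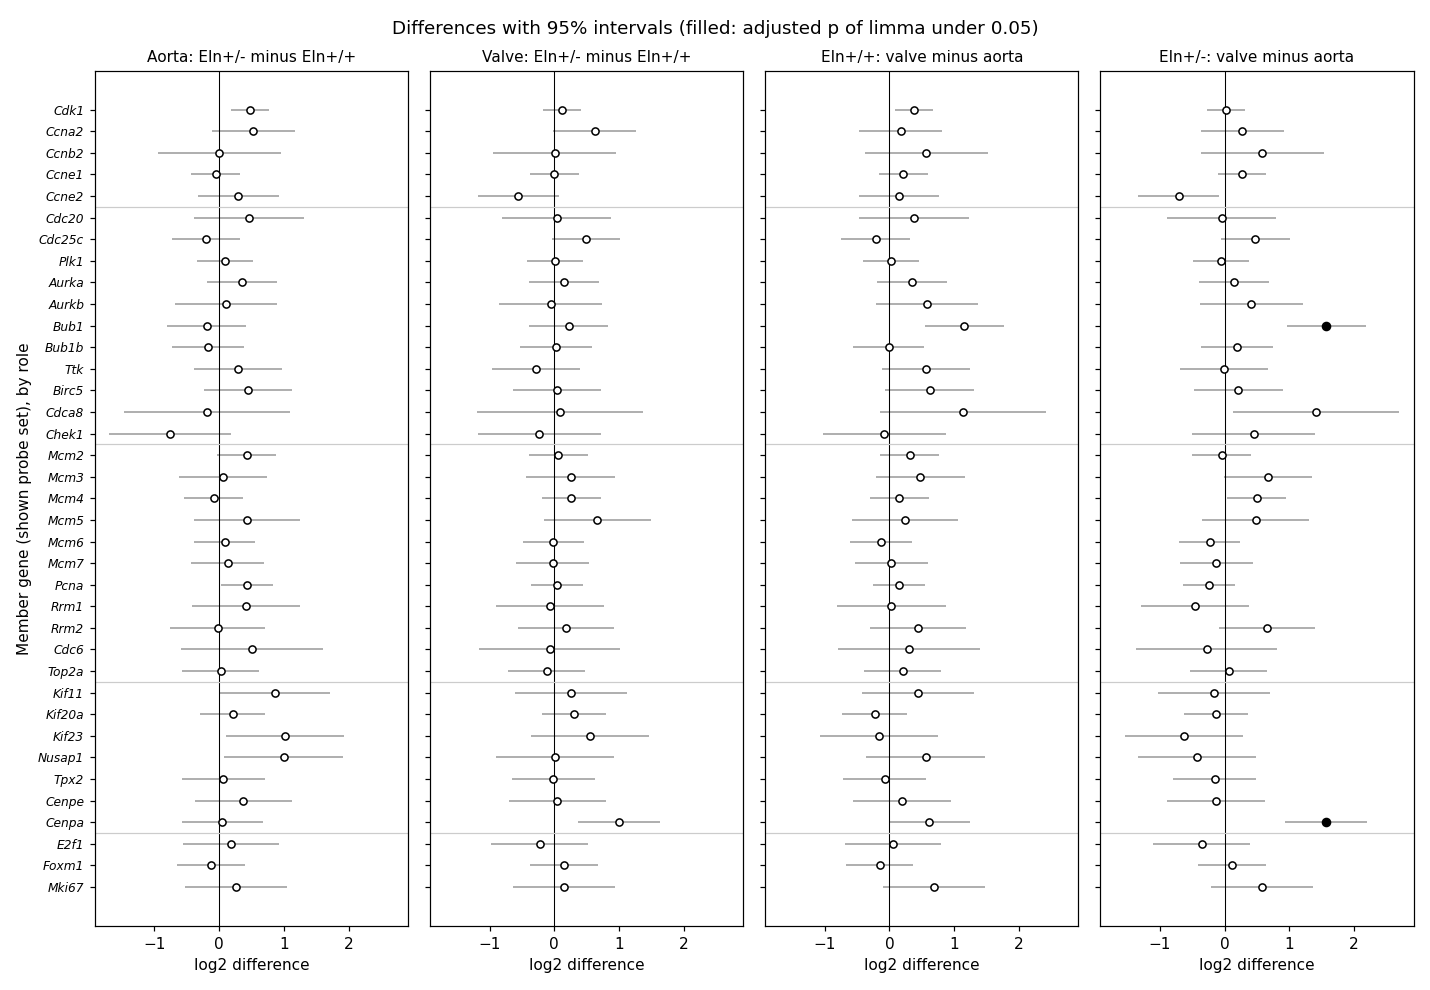
Log2 difference of each of the 37 genes (rows, by role) in each comparison of genotype or tissue, with 95% intervals. The interaction is not drawn. Points that are filled have a limma adjusted p below 0.05. Filled points are Bub1 and Cenpa for valve minus aorta in Eln+/-, at 1.58 and 1.57, and most other intervals include 0.

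Valve against aorta in Eln+/+ mice compares the 2 tissues at normal elastin dosage. No member passed, where 0.946% of all probe sets did, and Bub1 came nearest with an adjusted p of 0.0759. By shown probe sets the members were higher in the valve for 29 genes and lower for 8, with a median of 0.22. Over all genes 42.7% were higher and the median was -0.051. Over all 89 member probe sets 60.7% were higher, with a smaller median of 0.084, against 41.7% and -0.050 over all probe sets. At an unadjusted p below 0.05 there were 2 higher and 0 lower members, against 13.6% of all genes. For 3 members, Bub1, Cdk1 and Cenpa, every valve array lay above every aorta array, as for 4.19% of all genes. All probe sets had the same sign in 10 of the 28 genes with several.

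Bub1, a kinase of the spindle assembly checkpoint, had log2 ratios of -0.12, -0.39, -0.46 and -0.24 in aorta Eln+/+ and 0.56, 0.80, 0.62 and 1.44 in valve Eln+/+. The valve was 1.16 ± 0.29 (SE, n = 4 and 4) higher, or 2.23-fold, with an exact permutation p of 0.0286. The adjusted p was 0.0222 with quantile normalization, 0.0407 with only these 8 arrays in the fit and 0.0186 without valve Eln+/- replicate 4, which enters only the shared estimate of the spread. With other single arrays left out it lay above the threshold, up to 0.240. The second Bub1 probe set differed by -0.041 ± 0.27, so the difference rests on the shown probe set.

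Cdk1 was 0.38 ± 0.14 higher in the wild-type valve, with an adjusted p of 0.277, and Cenpa 0.62 ± 0.30, with an adjusted p of 0.430. Mki67 was 0.69 ± 0.37 higher with overlap between the groups, Mcm2 0.31 ± 0.21, Top2a 0.21 ± 0.28 and Pcna 0.15 ± 0.19. All 5 cyclin and Cdk1 genes and 10 of 11 replication genes were higher in the valve, with medians of 0.22 and 0.21, as were 8 of 11 mitotic kinase and checkpoint genes, with a median of 0.38. The passenger complex genes Cdca8, Birc5 and Aurkb were at 1.14 ± 0.61, 0.62 ± 0.32 and 0.58 ± 0.37. The spindle and centromere group was mixed, 4 higher and 3 lower. Leaving out valve Eln+/+ replicate 2 gave 33 higher against 4 lower genes and a median of 0.34. Cardiac muscle markers had a mean of -2.65 ± 0.95 (SD, n = 4) in these aortas and 0.96 ± 0.42 in these valves. All 11 macrophage and 8 of 10 endothelial markers were higher in the valve, while 9 of 10 smooth muscle markers were lower. The part of these tissues and cell types in the Bub1 and other member differences was not tested.

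In Eln+/- mice the valve differed from the aorta in 5.81% of all probe sets, and 3 member probe sets of 2 genes, Bub1 and Cenpa, rose. By genes this is 2 of 37, and over all genes 4.41% passed in that direction and 7.06% in either, so the share of members is near the background. The shown probe sets were higher in the valve for 20 genes and lower for 17, with a median of 0.066, against 49.6% higher and a median of -0.0030 over all genes. Over all 89 member probe sets 60.7% were higher, with a median of 0.083, against 47.3% and -0.019 over all probe sets. At an unadjusted p below 0.05 there were 4 higher members and 1 lower, against 21.2% of all genes. The signs were the same over all probe sets in 16 of 28 genes.

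Bub1 was at -1.06, -0.28, -0.27 and -0.36 in aorta Eln+/- and at 1.26, 1.35, 1.60 and 0.11 in valve Eln+/-. All valves lay above all aortas, with valve replicate 4 close to them, and 6.97% of all genes separated in that direction. The difference was 1.58 ± 0.29 (SE, n = 4 and 4), 2.98-fold, with an adjusted p of 0.00433 and an exact permutation p of 0.0286. The second probe set differed by -0.014 ± 0.27. Across the single arrays left out, the shown probe set gave adjusted p values from 0.000513 to 0.0227.

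Cenpa was at -0.88, 0.46, -0.22 and -0.84 in aorta Eln+/-, where replicate 2 was the highest, and its valve values are those given above, 0.69 to 1.97. The difference was 1.57 ± 0.30 (SE, n = 4 and 4), 2.96-fold, with an adjusted p of 0.00560. Its second probe set rose as well, by 0.90 ± 0.24 with an adjusted p of 0.0347, and the third was 0.43 ± 0.39 higher, with an adjusted p of 0.620. Without aorta Eln+/- replicate 2 the shown probe set differed by 1.85. Cardiac muscle markers were 14 genes with a mean of -2.56 ± 1.09 (SD, n = 4) in these aortas and 1.87 ± 0.41 in these valves. Other lists differed as well. All 11 macrophage, 8 of 10 endothelial and 7 of 9 chondrocyte markers were higher in the valve, and 9 of 10 smooth muscle markers were lower. The part of these tissues and cell types in the Bub1 and Cenpa differences was not tested.

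**Figure D5:**
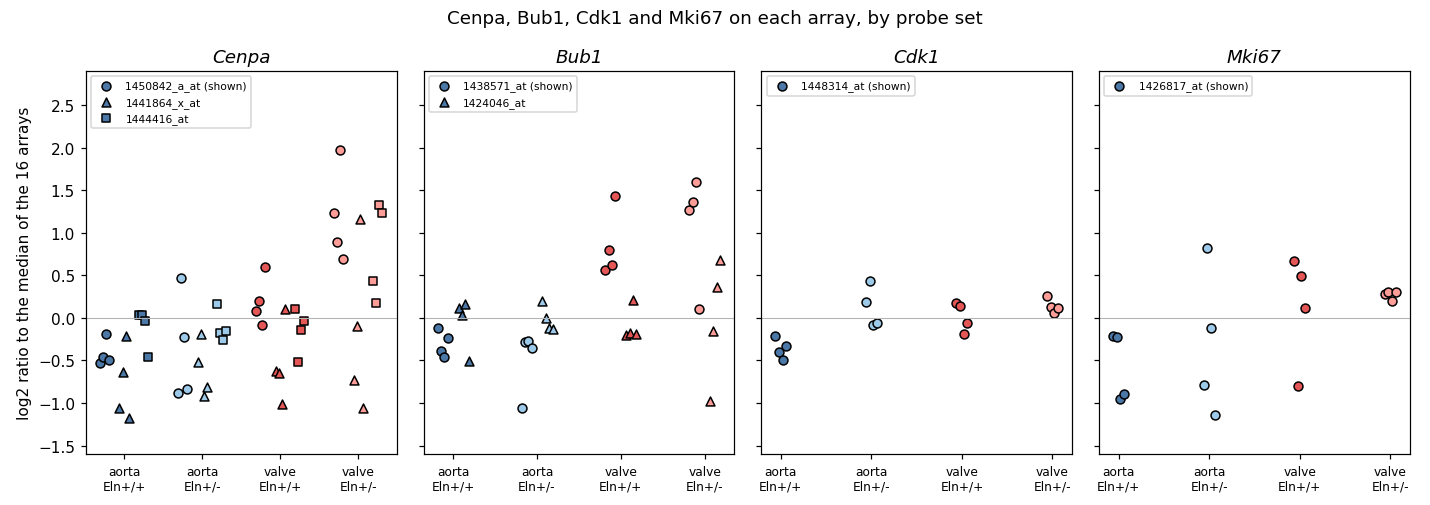
Log2 ratio of Cenpa, Bub1, Cdk1 and Mki67 on each array, by group and probe set (marker shape). Both rising Cenpa probe sets sit highest in valve Eln+/-, the shown Bub1 probe set separates valve from aorta while its second probe set does not, and Cdk1 is lowest in aorta Eln+/+.

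The remaining members gave no call between the heterozygous tissues. Cdca8 was 1.42 ± 0.61 higher in the valve, and 0.63 without aorta Eln+/- replicate 4, where it was at -3.05. Rrm2, Mcm3 and Mcm4 were 0.65, 0.67 and 0.50 higher. Mki67 was 0.58 ± 0.37 higher, 0.96 without aorta Eln+/- replicate 2 and 0.30 without replicate 4. Ccne2 was lower, at 0.019, 0.86, 0.83 and -0.22 in aorta and -0.82, 0.19, -0.10 and -0.61 in valve, a difference of -0.70 ± 0.29 with an adjusted p of 0.199. Pcna was at -0.25 ± 0.19, and at -0.063 without aorta Eln+/- replicate 2, Mcm2 at -0.043 ± 0.21, Top2a at 0.066 ± 0.28 and Cdk1 at 0.019 ± 0.14.

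The split of these differences depended on single aorta Eln+/- arrays, above all replicate 2. In the spindle and centromere group, 6 of 7 genes were lower in the valve, Kif23 by -0.63 ± 0.43, Nusap1 by -0.42 ± 0.43 and Kif11 by -0.16 ± 0.41. Without replicate 2 Kif11 was 0.29 and Nusap1 0.071 higher, and Kif23 was at -0.26. Over all members the counts became 30 higher and 7 lower with a median of 0.25, 10 genes changed sign, and 3 genes passed. The added gene was Mcm4, a helicase subunit, at 0.69 with a limma adjusted p of 0.0429. Its second probe set was at -0.35, 0.42, 0.19 and 0.0099 in aorta Eln+/- and at 0.046, -0.046, -0.56 and -0.20 in valve Eln+/-. The highest of these values lay in the aorta and the lowest in the valve, so the call rests on the shown probe set. Without aorta Eln+/- replicate 4 instead, 18 members were higher and 19 lower, the median was -0.026, and Bub1 and Cenpa passed.

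Whether the genotype difference itself differs between valve and aorta was tested as the interaction. No member passed, where 0.00% of all probe sets did, and 1 member was below an unadjusted p of 0.05, against 8.48% of all genes. By shown probe sets the interaction, valve minus aorta, was above 0 for 15 members and below 0 for 22, with a median of -0.11. Over all genes 54.8% were above 0 and the median was 0.044. With all 89 member probe sets, 50 were above 0 and 39 below. Their median was 0.032, against 0.027 over all probe sets, so the lower median of the members rests on the shown probe sets. The signs were the same over all probe sets in 12 of 28 genes. Cenpa was at 0.95 ± 0.42, with an adjusted p of 0.636, and its second probe set at 0.94 ± 0.33, with an adjusted p of 0.624. The interaction of Ccne2 was -0.85 ± 0.42, with an adjusted p of 0.659. Ccne2 was at -0.39, 0.48, 0.28 and -0.074 in aorta Eln+/+ and at -0.093, -0.019, 0.24 and 0.76 in valve Eln+/+, so the 4 groups overlapped throughout.

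Among 156 other cell cycle genes in 12 lists, 99 were higher and 57 lower in aorta Eln+/-, with a median of 0.13 and 0 past the threshold. All 7 CDK inhibitors were higher there, with a median of 0.26, and 12 of 14 condensin, cohesin and chromatin genes, with a median of 0.27. These counts include aorta Eln+/- replicate 2, which held the highest aorta value for 59 of the 156 genes, or 37.8%, against 20.6% of all genes. The 2 lowest p values in each direction belonged to Dut, which keeps dUTP low, at 0.61, the replication stress kinase Atr at 0.69, the chromatin remodeller Hells at -0.67 and the phosphatase Cdc25b at -0.71, with adjusted p values of 0.867 and 0.885. In the valve the split was 77 to 79, with Ccng1, a p53 target, at 0.82, the securin Pttg1 at 0.62, the cytokinesis protein Anln at -1.07 and the CDK inhibitor Cdkn1b at -0.59. Their adjusted p values were 0.372 to 0.467.

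Between the tissues of Eln+/+ mice 97 of the 156 genes were higher in the valve and 59 lower, with 0 past the threshold. The lowest p values were those of Ccnd1, the D-type cyclin that starts G1 progression, at 1.20 with an adjusted p of 0.0677 and the CDK inhibitor Cdkn1a at 0.60 with 0.0846. In the lower direction they were those of the checkpoint kinase Chek2 at -0.70 and the pocket protein Rbl1 at -0.92, with adjusted p values of 0.204 and 0.216. In Eln+/- mice 78 were higher and 78 lower, and 6 of 156 passed, against 7.06% of all genes. Ccnd1 rose by 1.49, Ccng1 by 1.46, the proto-oncogene Mycn by 1.21 and the repressor E2f6 by 1.13, while Anln fell by 1.49 and Cdc27, a subunit of the anaphase-promoting complex, fell by 0.68. The limma adjusted p values of the 6 genes ran from 0.00491 for Anln to 0.0337 for Mycn. For the interaction 67 were above 0 and 89 below, with Hells at 1.14, Pole at 0.94, Cdkn1b at -0.91 and Anln at -1.30, each with an adjusted p of at least 0.619.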

How the data were processed

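RNA of individual specimens was measured on 16 Affymetrix whole-genome mouse arrays. Per the submitters' processing notes, RMA was used. The deposited numbers have the unit ratio (linear), read from the values as the signal of a probe set over its median across the 16 arrays, a step that the labels do not describe. In 5257 of the probe sets tested the median ratio is below 1, so that these were divided by a larger number than their median. The ratios hold no absolute level, so no filter on signal could be applied in the main fit and levels of different genes were not compared.

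After dropping 64 control probe sets, log2 ratios of the other 45037 were fitted with lmFit and eBayes of limma 3.58.1 (statmod 1.5.0, R 4.3.3). All 16 arrays entered 1 fit of 4 group means, leaving 12 residual degrees of freedom beside 3.6 prior ones. Contrasts were tested two-sided, and p-values were adjusted by Benjamini-Hochberg across the 45037, at a threshold of 0.05. Genes given in full also got an exact permutation test, in which 8 arrays allow 70 assignments. The number of arrays, 4 in each group, limits the precision. Of several probe sets of a gene, the one of greatest SD across arrays was shown. The fit was tested on simulated data.

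The member genes, the wider gene lists and the marker lists were chosen with earlier results of these data known. The rule for genes given in full took Mki67, Top2a, Cdk1, Ccnb1, Mcm2 and Pcna and, for each comparison, the members past the threshold, or else the 2 members of lowest unadjusted p. From the wider lists it took the genes past the threshold, or else the 2 of lowest unadjusted p in each direction. Where the setting applies, results were recomputed with centred array medians, quantile normalization, a pseudocount of 0.1, only probe sets with a median of 1, robust eBayes, array weights, a fit of only the groups compared, a replicate block, each array left out and the mean over the probe sets of a gene. The contrast of Xist to Y-linked genes was a covariate in all comparisons, T cell markers only for the genotype in aorta and cardiac muscle markers only for the genotype in valve. The same replicate numbers occur in all 4 groups, but the correlations of same-numbered arrays ran from -0.146 to 0.0711, with 0 over 0.1, so the numbers were not taken as pairs. In Eln+/+, Xist was at -6.64 in aorta replicate 2 and at 0.21 in valve replicate 2. It was at 0.10 in aorta replicate 4 and at -6.64 in valve replicate 4. By the sex seen in the RNA, these same-numbered arrays do not come from 1 animal.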

Additional observations from a re-analysis of the deposited data

Results flagged for a closer look

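Within the 172 sets of 4 arrays examined (each member and each list mean in each group), 9 had an array whose gap to the nearest of the others exceeded Dixon's 95% critical share of the range, and chance alone gives about 8.6. On aorta Eln+/- arrays these were Bub1 on replicate 1 (share of the range 0.894, lowest), Cdc20 on replicate 2 (0.860, highest) and the mean of the spindle, kinesin and centromere genes on replicate 2 (0.923, highest, at 1.19 against -0.084 to 0.015 on the other 3). On aorta Eln+/+ arrays they were Ccnb2 on replicate 1 (0.854, highest) and Mcm3 on replicate 3 (0.893, lowest). On valve Eln+/+ arrays they were Kif11 on replicate 2 (0.944, lowest), the mean of all members on replicate 2 (0.892, lowest, at -0.27 against 0.18 to 0.23) and Bub1b on replicate 4 (0.922, highest). On valve Eln+/- arrays it was Mcm2 on replicate 2 (0.917, highest).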

How the results depend on the processing

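The calls of Bub1 and Cenpa for valve against aorta in Eln+/- held under every alternative run for that comparison, which included no T cell or cardiac covariate, and 0 member genes passed for genotype or interaction under any. In Eln+/+, the count of member probe sets past the threshold went from 0 to 1 with quantile normalization and with only the groups compared, and lay between 0 and 1 with single arrays left out. With the contrast of Xist to Y-linked genes in the fit the median genotype difference was 0.45 in aorta and 0.33 in valve. Both values rest on aorta Eln+/+ replicate 4 and valve Eln+/+ replicate 2, the only Eln+/+ arrays that carried Xist. For the tissue in Eln+/- 2 or 3 member probe sets passed in each setting. With the replicate number as a block it was 2, and the block changed no other member call. The sign of small differences that passed nowhere turned. For the genotype in aorta, Top2a was -0.046 with array weights, -0.090 without Eln+/- replicates 2 and 4, -0.12 with the T cell covariate and -0.027 as a mean over probe sets, and Mki67 -0.12 with the T cell covariate. For the genotype in valve, Top2a was 0.33 and Pcna -0.076 with the Xist covariate, and Mki67 -0.094 with the cardiac covariate. Means over probe sets put Top2a at -0.025 for the tissue in Eln+/+ and at -0.049 in Eln+/-, and without aorta Eln+/- replicates 2 and 4 Pcna there was 0.091. The Mki67 interaction was 0.023 with array weights and 0.037 without those replicates. With single arrays left out, Top2a ranged from -0.070 to 0.16 (genotype, aorta), -0.43 to 0.070 (genotype, valve), -0.070 to 0.23 (tissue, Eln+/-) and -0.45 to 0.048 (interaction). Mki67 ranged from -0.11 to 0.54, -0.15 to 0.34 and -0.41 to 0.27 (genotype in aorta, in valve and interaction). Mcm2 ranged from -0.079 to 0.15 (genotype, valve) and -0.19 to 0.097 (tissue, Eln+/-), Cdk1 from -0.049 to 0.12 (tissue, Eln+/-) and Pcna from -0.042 to 0.096 (genotype, valve). The cause was not tested. The ratios hold no signal level, so beyond the median below 1 of some probe sets, dim ones could not be told from bright ones.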
